A study of Mus musculus with 12 samples.

Results

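Hif3a and 8 other genes of the hypoxia-inducible factor (HIF) pathway were followed through astrocytes of the mouse cerebral cortex. The members were the rows whose gene symbol was Hif3a, Hif1a, Epas1, Arnt, Egln1, Egln3, Vhl, Vegfa or Bnip3, 9 of the 45777 genes in the table, together with the 3 Hif3a transcripts among 129299 transcripts. Hif3a was chosen by its gene counts in these same libraries, which differed between the genotypes, so its genotype difference is a description here and carries no test. Its response to stress, and the other 8 genes, were tested over the whole table.

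RNA was sequenced from 12 libraries of immunopanned and bead-purified astrocytes collected at postnatal day 14, 3 in each of 4 groups. Cre- animals carried floxed Nr3c1 alleles (Nr3c1 flox/flox), Nr3c1 being the glucocorticoid receptor gene, and AGR cKO animals carried in addition Aldh1l1-CreERT2, a tamoxifen-activated recombinase driven by an astrocyte promoter. All 4 groups received 4-hydroxytamoxifen from day 5 to 7, so the Cre- groups shared both the floxed alleles and the drug. The ESD pups of each genotype were kept from the dam for 3 hours a day from day 1 to 14, and the control pups were not. The labels do not say whether each library came from its own animal, so p-values measure the spread between these libraries, which may be technical in part.

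Libraries held 42603546 to 52130081 counted reads. Nr3c1 stood at 198.7 to 237.2 CPM (counts scaled to a fixed library total) in the 6 Cre- libraries and at 66.5 to 108 CPM in the 6 AGR cKO libraries, with no overlap. The 12 astrocyte markers summed to 38090 to 53960 CPM over the 12 libraries, against 160 to 983 CPM for 12 microglia and macrophage markers, 330 to 2377 CPM for 14 endothelial markers and 50.9 to 91.0 CPM for 12 neuron markers. No marker of these 4 lists was at 0 in all libraries of a group. The 14 mural cell and fibroblast markers summed to 2380 to 6897 CPM, the highest of the lists other than astrocytes. In bulk RNA, fewer cells of a type and less RNA per cell cannot be told apart.

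HIF is a pair of proteins, an oxygen-labile alpha subunit (HIF-1α from Hif1a, HIF-2α from Epas1, HIF-3α from Hif3a) and the stable partner ARNT. When oxygen is plentiful, the prolyl hydroxylases encoded by Egln1 and Egln3 mark the alpha subunit, and the ubiquitin ligase component encoded by Vhl takes it for degradation. When oxygen falls, the pair binds hypoxia response elements and raises targets such as Vegfa, Bnip3 and Egln3 itself. HIF-3α differs from the other alpha subunits in its C-terminal part, and several of its isoforms dampen the others. Much of this control acts on protein stability, which RNA levels do not show.

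Promoter windows are printed for Hif3a, whose level set the genotypes apart, for Vegfa, which passed the test, and for Egln3, a hydroxylase that is itself a HIF target. Each holds the 250 bases before the start of the gene's first RefSeq transcript, read 5′ to 3′ on the gene's strand, from RefSeq on build GRCm38.p6 (mm10). The windows are chr7:17062428-17062677, minus strand, for Hif3a, chr17:46032378-46032627, minus strand, for Vegfa and chr12:54203875-54204124, minus strand, for Egln3. Capitals mark the 5-base cores ACGTG and GCGTG of the hypoxia response element, on either strand.
Hif3a: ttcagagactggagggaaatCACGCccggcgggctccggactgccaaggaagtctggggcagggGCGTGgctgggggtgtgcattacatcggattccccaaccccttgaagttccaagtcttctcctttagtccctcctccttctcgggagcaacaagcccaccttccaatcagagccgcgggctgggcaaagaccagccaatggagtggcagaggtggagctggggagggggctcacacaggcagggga
Vegfa: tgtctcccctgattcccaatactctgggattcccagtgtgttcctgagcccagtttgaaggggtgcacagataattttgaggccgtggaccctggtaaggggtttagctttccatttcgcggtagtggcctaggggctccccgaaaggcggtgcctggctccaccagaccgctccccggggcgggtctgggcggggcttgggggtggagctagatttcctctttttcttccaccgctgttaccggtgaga
Egln3: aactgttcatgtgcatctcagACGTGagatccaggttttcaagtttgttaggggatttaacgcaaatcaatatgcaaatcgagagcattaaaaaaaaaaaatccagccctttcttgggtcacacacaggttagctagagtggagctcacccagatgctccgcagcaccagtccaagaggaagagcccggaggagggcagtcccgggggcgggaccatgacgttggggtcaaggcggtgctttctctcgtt
The Hif3a window held GCGTG 2 times, 182 and 226 bases before the start, and the Egln3 window held ACGTG 1 time, 225 bases before it. The Vegfa window held neither, while a second Vegfa window, at a start inside the gene, held 1 of each. Of the 8 members with an entry, 7 had at least 1 core in some window, the most being 5 in Bnip3, where 2 of the matches are the overlapping strands of CACGTG. Among all 32851 promoter windows of this length, 38.6% held at least 1 core and 16.7% held 2 or more. AGAACA, a 6-base part of the glucocorticoid response element, was in none of the members' windows on either strand and in 16.1% of all windows. These matches describe letters only and say nothing of whether a factor binds there.

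Hif3a was lower in every AGR cKO library than in every Cre- library. The 3 Cre- control libraries stood at 103, 171 and 115 CPM, and the Cre- ESD libraries at 191, 125 and 362 CPM. Levels were 30.4, 31.9 and 29.9 CPM in AGR cKO control pups and 26.5, 31.0 and 50.2 CPM in their ESD counterparts. The lowest Cre- library, at 103 CPM, was thus above the highest AGR cKO library, at 50.2 CPM, and within each genotype the ESD libraries were spread more widely than the controls.

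**Figure D1:**
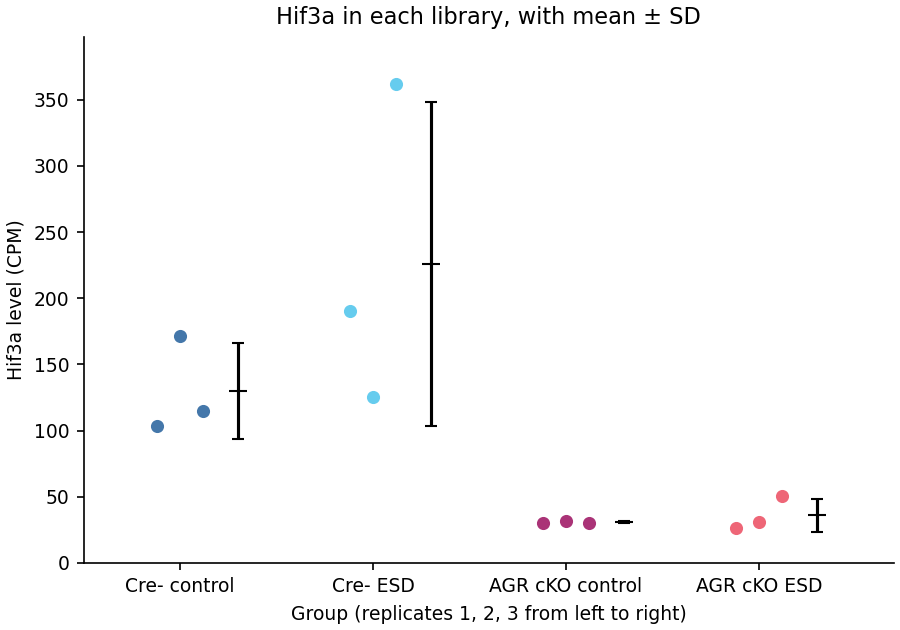
Hif3a level in CPM (vertical axis, from 0) in each of the 12 libraries, by group; points are libraries and the bar beside them is the mean ± SD (n = 3). The Cre- libraries lie between 103 and 362 CPM and the AGR cKO libraries between 26.5 and 50.2 CPM.

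Group means were 130 ± 36.4 CPM in Cre- control, 226 ± 122 in Cre- ESD, 30.7 ± 1.01 in AGR cKO control and 35.9 ± 12.6 in AGR cKO ESD (SD, n = 3 each). Between genotypes the log2 difference was -2.08 ± 0.36 (SE) in control pups, a 4.22-fold lower level, and -2.65 ± 0.36 in ESD pups, 6.3-fold lower. Across all genes tested, 0.0157% passed an adjusted p of 0.05 for genotype in control pups and 1.04% in ESD pups. These shares describe the whole table and do not say that Hif3a passed, since its genotype difference carries no test here. With a term for endothelial marker level in the model the differences were -2.23 and -2.86. Over the 12 libraries Hif3a ran with microglia (Pearson r 0.68), erythroid (0.61), ependymal (0.54), astrocyte (0.46) and endothelial (0.36) marker levels. For mural, precursor, neuron and oligodendrocyte markers r was 0.23, 0.05, -0.1 and -0.13. These points share the genotype split, and the part of markers other than endothelial in the Hif3a values was not tested. Without the third Cre- ESD library, the one at 362 CPM, the ESD difference was -2.14.

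Stress did not move Hif3a past the threshold in either genotype. In Cre- pups the ESD libraries were on average 1.74-fold above control (log2 0.80 ± 0.34, 95% interval 0.050 to 1.55, edgeR adjusted p = 0.691), with overlapping libraries. Without the third Cre- ESD library this value was 0.28. In AGR cKO pups the difference was 0.22 ± 0.35 (edgeR adjusted p = 0.914, interval -0.54 to 0.98), and it turned to -0.10 without the third AGR cKO ESD library. No gene of the whole table passed the threshold for stress in either genotype, 0% of 19163 genes by edgeR. At an unadjusted p under 0.05 edgeR had 1378 in Cre- and 1453 in AGR cKO. DESeq2 called 25 and 18 genes at an adjusted p under 0.05, the threshold that no gene passed by edgeR. Both intervals are wide, so a stress response of Hif3a was not resolved at this number of libraries.

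The deposited table lists 3 Hif3a transcripts with different starts. Variant 1 starts at chr7:17062427 on the minus strand, variant X1 starts 1276 bases downstream and variant 2 starts 5748 bases downstream. The promoter window printed for Hif3a therefore lies before variant 1 only.

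All 3 Hif3a transcripts had lower means in AGR cKO. Variant 1 averaged 39.0 ± 27.4 TPM (a transcript level per length) over the 6 Cre- libraries and 9.19 ± 3.67 TPM over the 6 AGR cKO libraries, a ratio of 4.24. Variant 2 averaged 26.1 ± 12.6 and 3.83 ± 2.86 TPM, a ratio of 6.79. Variant X1 averaged 7.89 ± 5.49 and 0.802 ± 1.43 TPM, a ratio of 9.85. Variants 1 and 2 did not overlap between genotypes: variant 1 was at 17.4 to 92.6 TPM in Cre- and 6.14 to 14.5 TPM in AGR cKO, and variant 2 at 17.0 to 50.3 and 0.0174 to 6.94 TPM. Variant X1 overlapped, at 1.61 to 17.1 against 0 to 3.58 TPM. The transcripts are parts of the gene chosen for this same contrast, so these values are a description and carry no test. Libraries of the genotypes did not overlap for 2.77% of all genes tested, and the share over all transcripts was not computed.

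The assignment of reads among these transcripts was unsteady in both genotypes. Variant X1 took 3.22 to 25.3% of the Hif3a transcript counts in Cre- libraries and 0 to 27.9% in AGR cKO libraries. Variant 1 took 38.1 to 62.5% of the Hif3a transcript counts in Cre- libraries and 46.9 to 99.7% in AGR cKO libraries. In the second AGR cKO control library, variant 2 held 2 counts and variant 1 held 1462, whereas the other 2 libraries of that group had 826 and 630 counts of variant 2. Variant X1 held 0, 3 and 4 counts in the AGR cKO control libraries and 144, 434 and 6 in the AGR cKO ESD libraries. How reads were divided among the variants is not given in the sources used here.

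**Figure D2:**
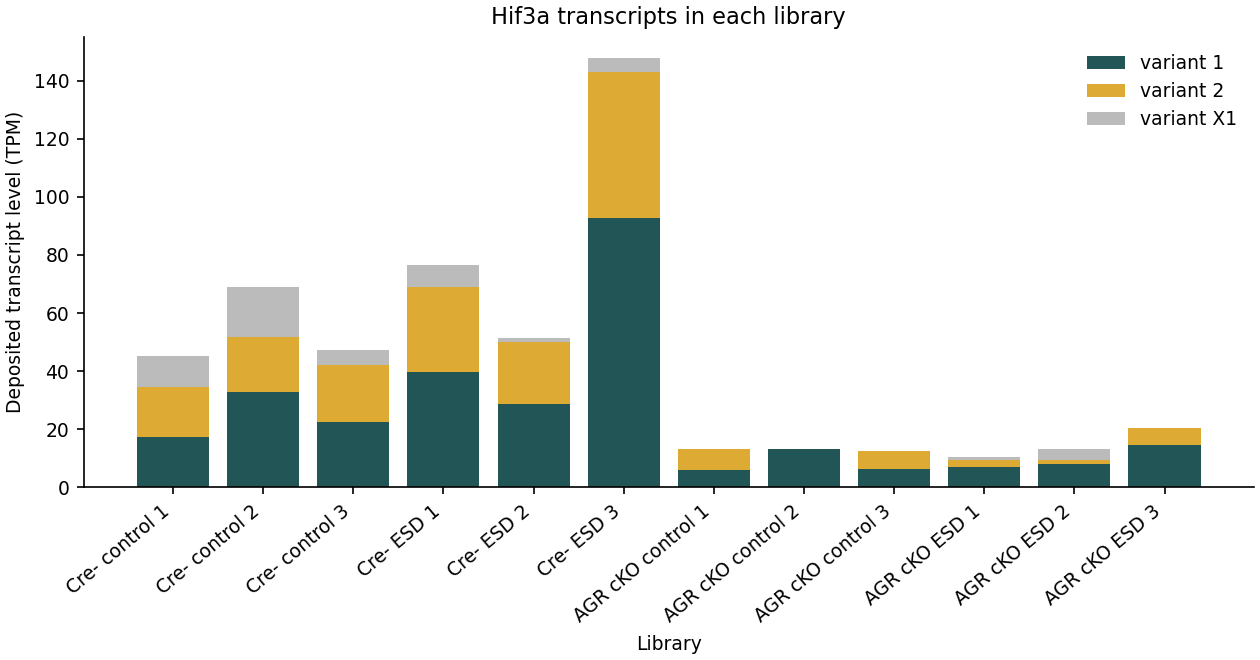
Deposited TPM of the 3 Hif3a transcripts, stacked (vertical axis, from 0), in each of the 12 libraries (horizontal axis). The stacks reach 45.4 to 148 TPM in Cre- and 10.5 to 20.6 TPM in AGR cKO libraries, and variant 2 is almost missing from the second AGR cKO control library.

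Per length, Epas1 was the most abundant alpha subunit in both genotypes. Over the 6 Cre- libraries Epas1 averaged 504 ± 65.5 TPM, Hif3a 72.9 ± 38.7 and Hif1a 69.0 ± 4.94 TPM (SD, n = 6). The last 2 overlapped there, Hif3a ranging from 45.4 to 148 TPM and Hif1a from 61.3 to 74.8 TPM. Over the 6 AGR cKO libraries Epas1 averaged 450 ± 33.1, Hif1a 77.9 ± 6.70 and Hif3a 13.8 ± 3.46 TPM, and the highest Hif3a library (20.6 TPM) lay below the lowest Hif1a library (71.7 TPM). Arnt averaged 45.3 ± 4.06 and 44.4 ± 3.60 TPM in Cre- and AGR cKO, and its brain-rich relative Arnt2 averaged 111 ± 10.3 and 118 ± 6.85 TPM. Hif3a had the largest spread between libraries of the 9 genes, with a coefficient of variation of 54.1% within Cre- ESD, and the smallest within AGR cKO control among its own groups, 3.28%.

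Of the 8 members other than Hif3a, edgeR called 0 for genotype in control pups, where 0.0157% of all genes were called. It called 1, Vegfa, in ESD pups, where 1.04% of all genes were called and 0.584% were called higher. Over both conditions together it called 0 of 8, against 3.49% of all genes. At an unadjusted p under 0.05 the counts were 1, 2 and 3 of 8, against 10.2%, 15.6% and 20% of all genes. DESeq2 called 0, 1 and 1 of 8, and limma on log2 TPM called 0 in each. Libraries of the genotypes did not overlap for 1 of 8 members in control pups (16.9% of all genes) and for 3 of 8 in ESD pups (19.9%), and over both conditions for 0 of 8 (2.77%).

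**Figure D3:**
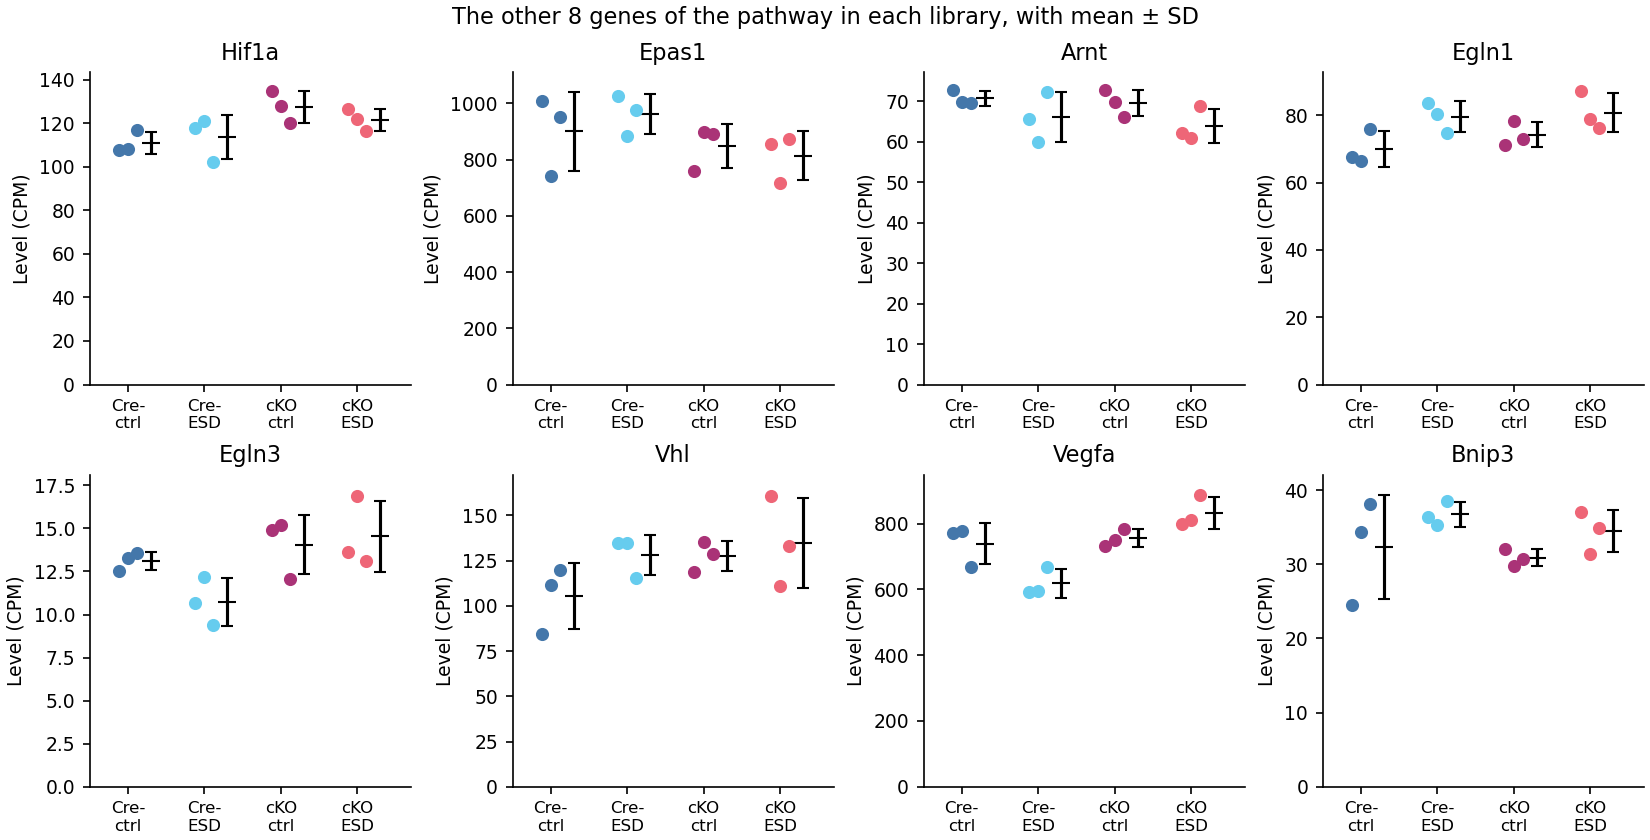
Level in CPM (vertical axes, from 0, 1 scale per gene) of the 8 members other than Hif3a in the 12 libraries, by group, with ctrl for control and cKO for AGR cKO; points are libraries and bars the mean ± SD (n = 3). Vegfa lies at 592 to 670 CPM in Cre- ESD and at 798 to 888 CPM in AGR cKO ESD. Between genotypes, libraries also do not overlap for Egln3 and Epas1 in ESD pups and for Hif1a in control pups, which were not called.

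Hif1a, the alpha subunit best known for the acute hypoxic response, was slightly higher in AGR cKO control pups. Its Cre- control libraries stood at 108, 108 and 117 CPM and its AGR cKO control libraries at 135, 128 and 120 CPM. The groups did not overlap, yet the log2 difference of 0.20 ± 0.0785 did not pass the test over all genes (edgeR adjusted p = 0.4). In ESD pups the ranges, 102 to 121 and 116 to 126 CPM, overlapped (0.095 ± 0.0785, edgeR adjusted p = 0.6).

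Epas1, whose protein is prominent in endothelium as well as in astrocytes, was at 1028, 885 and 976 CPM in ESD pups of the Cre- genotype. Their AGR cKO counterparts held 857, 715 and 872 CPM of it. These libraries did not overlap, and the log2 difference was -0.24 ± 0.13 (edgeR adjusted p = 0.391). In control pups the libraries overlapped, at 741 to 1010 and 760 to 900 CPM (-0.083 ± 0.13, edgeR adjusted p = 0.888). Endothelial markers moved the same way: all 14 had a lower estimate in AGR cKO in both conditions, with 0 called, and their sums were 544 to 1451 CPM in Cre- ESD and 330 to 628 CPM in AGR cKO ESD. With endothelial level as a term in the model the Epas1 difference in ESD pups was -0.13. Microglia and macrophage markers were also lower in estimate, 12 of 12 in both conditions with 0 called, and summed to 477 to 794 CPM in Cre- ESD and 160 to 423 CPM in AGR cKO ESD. For mural cell and fibroblast markers 14 of 14 estimates were lower in ESD pups, with 0 called. Their sums there were 3445 to 6745 CPM in Cre- and 2380 to 4932 CPM in AGR cKO. In control pups 9 of the 14 estimates were higher and 5 lower. All 5 erythroid markers were lower in estimate in both conditions, with 0 called. At an unadjusted edgeR p under 0.05 there were 5 of 5 in ESD pups and 0 of 5 in control pups. Their sums did not overlap in ESD pups, at 132 to 224 CPM in Cre- ESD and 25.4 to 107 CPM in AGR cKO ESD. Over the 12 libraries Epas1 ran with erythroid (Pearson r 0.76), microglia (0.71), mural (0.65) and endothelial (0.64) marker levels, as a description of points that share their libraries. The part of the microglia, mural and erythroid markers in the Epas1 values was not tested.

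Arnt, the shared partner, had the smallest coefficient of variation in CPM of the 9 genes over the 12 libraries, 6.75%. In TPM that of Arnt was 8.21%, above the 6.83% of Egln1. Arnt stood at 72.8, 69.8 and 69.5 CPM in Cre- control, 65.6, 60.0 and 72.3 in Cre- ESD, 72.6, 69.7 and 66.2 in AGR cKO control and 62.1, 60.8 and 68.7 in AGR cKO ESD. Genotype differences were -0.024 ± 0.080 and -0.046 ± 0.080 in control and ESD pups (edgeR adjusted p = 0.956 and 0.833). The 95% intervals were -0.20 to 0.15 and -0.22 to 0.13.

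Among the oxygen sensors, Egln1, the main HIF prolyl hydroxylase, held 66.5 to 87.3 CPM over all 12 libraries. Its genotype differences were 0.085 ± 0.080 and 0.022 ± 0.080 (edgeR adjusted p = 0.778 and 0.934). Egln3 had the lowest mean CPM over the 12 libraries, at 12.5, 13.3 and 13.6 CPM in Cre- control, 10.7, 12.2 and 9.39 in Cre- ESD, 14.9, 15.2 and 12.1 in AGR cKO control and 13.6, 16.9 and 13.1 in AGR cKO ESD. All 3 AGR cKO ESD libraries were above all 3 Cre- ESD libraries, by 0.44 ± 0.14 on the log2 scale, 1.35-fold, which missed the threshold (edgeR adjusted p = 0.167). In control pups the difference was 0.10 ± 0.14 (edgeR adjusted p = 0.866).

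Vhl, which encodes the subunit that recognises hydroxylated HIF, ranged from 84.7 to 161 CPM. It averaged 105 ± 18.4 CPM in Cre- control, 128 ± 11.2 in Cre- ESD, 128 ± 8.42 in AGR cKO control and 135 ± 24.9 in AGR cKO ESD (SD, n = 3 each). The groups overlapped in both genotype comparisons, at 0.28 ± 0.15 in control and 0.073 ± 0.15 in ESD pups (edgeR adjusted p = 0.568 and 0.859). Over the list of 11 hydroxylase and degradation genes, which adds among others Egln2, Hif1an and Siah2, 0 were called in any of the 6 comparisons by edgeR. Their median log2 genotype difference over both conditions was 0.034, against -0.0023 for all genes tested, with 7 higher and 4 lower. At an unadjusted p under 0.05 there was 1 of 11, below the 20% of all genes.

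Vegfa, the angiogenic growth factor and textbook HIF target, rose in AGR cKO relative to Cre- among ESD pups. The Cre- ESD libraries stood at 592, 594 and 670 CPM while those of AGR cKO ESD pups stood at 798, 809 and 888 CPM, with no overlap. The log2 difference was 0.43 ± 0.088, 1.35-fold, with an edgeR adjusted p of 0.0459. Control pups of the 2 genotypes overlapped, with Cre- at 771, 778 and 667 CPM and AGR cKO at 732, 751 and 785 CPM (0.033 ± 0.088, edgeR adjusted p = 0.94). The interaction, which tests whether the genotype difference itself depended on stress, was 0.39 ± 0.13 and did not pass over all genes (unadjusted p = 0.00849, edgeR adjusted p = 0.999).

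The Vegfa call lay close to the threshold. It was lost in 11 of the 12 fits that left out 1 library, all but that without the first Cre- control library (adjusted p 0.0511 to 0.145, log2 differences 0.38 to 0.49). It was also lost in a fit of the ESD libraries alone (adjusted p = 0.162), and DESeq2 gave 0.000162. With the endothelial term the difference was 0.43 (adjusted p = 0.0711). Within genotypes, Vegfa was lower in Cre- ESD than in Cre- control by estimate (-0.26 ± 0.088, edgeR adjusted p = 0.653) and higher in AGR cKO ESD than in AGR cKO control (0.14 ± 0.088, edgeR adjusted p = 0.773).

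Bnip3, whose product acts in mitophagy and cell death, stood at 24.5, 34.3 and 38.1 CPM in Cre- control and at 32.1, 29.8 and 30.7 CPM in AGR cKO control. Among ESD pups, Cre- libraries held 36.4, 35.2 and 38.6 CPM and AGR cKO libraries 37.1, 31.4 and 34.9 CPM. Both genotype comparisons overlapped (-0.065 ± 0.13 and -0.092 ± 0.13, edgeR adjusted p = 0.92 and 0.792).

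**Figure D4:**
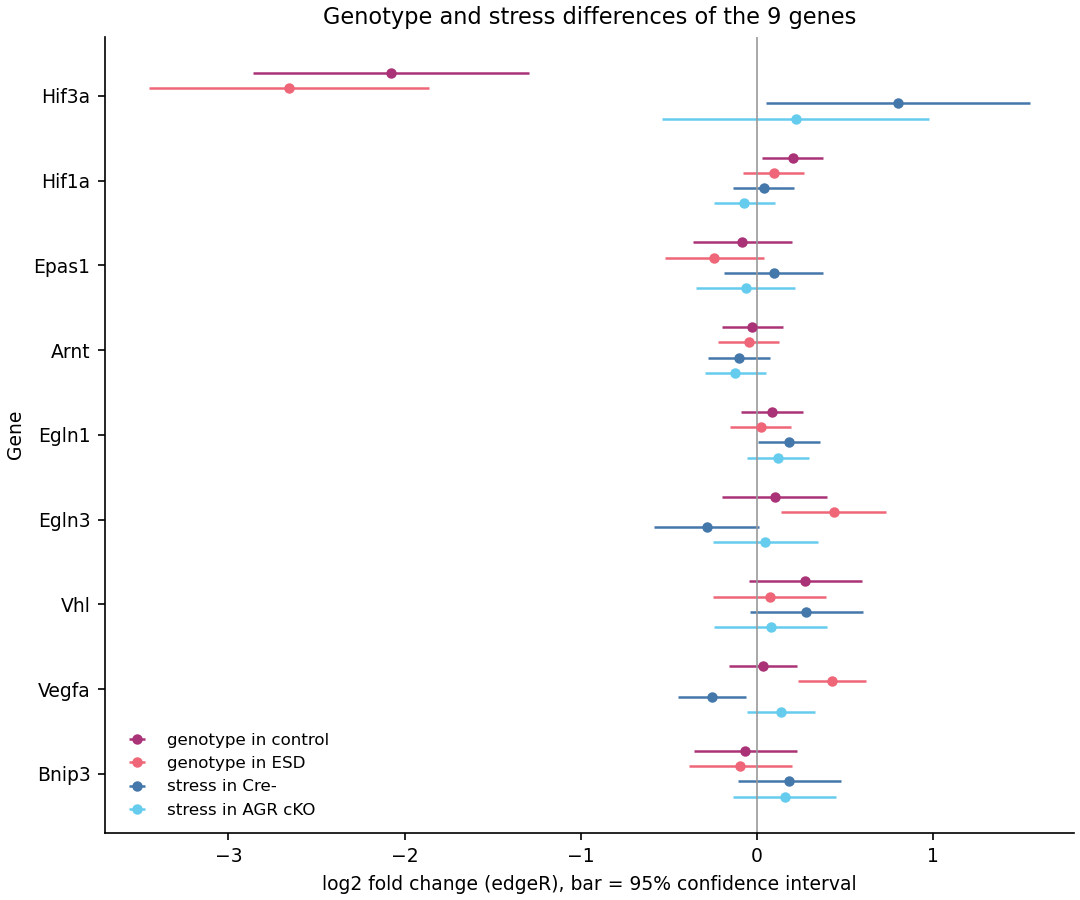
Log2 fold changes from edgeR (horizontal axis) of the 9 genes, for genotype (AGR cKO against Cre-) in control and in ESD pups and for stress (ESD against control) in each genotype; bars are 95% confidence intervals. The 2 genotype values of Hif3a, at -2.08 and -2.65, stand far to the left and are shown as a description, while every other value lies between -0.28 and 0.80.

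Stress within each genotype left the 8 members below the threshold. edgeR called 0 of 8 in Cre- and 0 of 8 in AGR cKO, as it called 0% of all genes, and DESeq2 and limma also called 0 of 8. At an unadjusted p under 0.05 there were 2 of 8 in Cre-, Egln1 (0.19 ± 0.080, edgeR adjusted p = 0.691) and Vegfa, and 0 of 8 in AGR cKO, against 7.19% and 7.58% of all genes. Libraries did not overlap for Egln3 in Cre-, lower in ESD by estimate (-0.28 ± 0.14, edgeR adjusted p = 0.706), where 11.1% of all genes did not overlap, and for Vegfa in AGR cKO, where 16.6% did not. For the interaction edgeR called 0 of 8 and 0% of all genes, with 1 of 8 and 4.49% at an unadjusted p under 0.05, and DESeq2 called 0 of 8.

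HIF targets outside glycolysis had mostly lower estimates in AGR cKO. The list includes the members Vegfa and Egln3, with higher estimates over both conditions, and Bnip3, with a lower estimate. Over both conditions 14 of the 18 tested were lower and 4 higher, with a median log2 difference of -0.11, while 50.6% of all genes were lower with a median of -0.0023, and 1 was called lower, as were 1.94% of all genes. That gene, Car9, encodes a carbonic anhydrase that is among the most hypoxia-responsive genes. It was low throughout, at 4.99, 6.23, 3.47, 3.38, 1.66 and 4.90 CPM in the Cre- libraries and 2.56, 2.28, 1.37, 1.61, 1.61 and 1.41 CPM in the AGR cKO libraries. The genotypes overlapped through the second Cre- ESD library, and the log2 difference was -1.17 ± 0.26 (edgeR adjusted p = 0.0332). The call was lost by limma on log2 TPM (adjusted p 0.0525 and 0.0522) and in 9 of 12 fits without 1 library (0.054 to 0.0847), and kept without the second or the third Cre- control library or the second Cre- ESD library. Kdm3a, a histone demethylase induced by hypoxia, ranged from 103 to 194 CPM in the Cre- libraries and from 81.2 to 95.9 CPM in the others, without overlap (-0.53 ± 0.13, edgeR adjusted p = 0.0505). Over both conditions 14 of 14 endothelial, 12 of 12 microglia and macrophage and 5 of 5 erythroid markers were also lower in estimate, 12, 12 and 5 of them at an unadjusted p under 0.05 and 0 called. The targets Adm, Ankrd37 and Ndrg1, at 19.9, 11.4 and 22 CPM, were highest in the first Cre- control library, which held the highest endothelial sum, 2377 CPM. Other targets peaked elsewhere, Car9 in the second Cre- control library (6.23 CPM) and Kdm3a in the third Cre- ESD library (194 CPM). The part of the endothelial, microglia and erythroid markers in the list's lean was not tested.

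Glycolytic HIF targets did not share a direction between genotypes. Over both conditions 10 of 17 were higher and 7 lower, with a median of 0.028, against 49.4% of all genes higher. Of the 17, 1 was called lower, as were 1.94% of all genes. Pfkp, a phosphofructokinase, averaged 221 ± 22.7 CPM over the Cre- libraries and 173 ± 21.4 CPM over the others (SD, n = 6 each), a log2 difference of -0.35 ± 0.083 (edgeR adjusted p = 0.0423). That call was lost without the filter on low counts (adjusted p = 0.0521) and in 9 of 12 fits without 1 library (0.0591 to 0.107) and kept without the first Cre- control, the first Cre- ESD or the third AGR cKO ESD library. Slc2a1, the glucose transporter that is abundant in brain endothelium, averaged 347 ± 91.1 and 218 ± 48.3 CPM (-0.67 ± 0.19, edgeR adjusted p = 0.0767). For stress in AGR cKO, 15 of these 17 genes had a higher estimate, with a median of 0.19 and 0 called by edgeR, and 51% of all genes were higher. There 3 of 17 had an unadjusted p under 0.05, against 7.58% of all genes, among them the glycolytic enzymes Eno1 (0.30 ± 0.094, edgeR adjusted p = 0.647) and Aldoa (0.19 ± 0.070, edgeR adjusted p = 0.647). In the same comparison 11 of 12 astrocyte markers were higher in estimate (median 0.14), 12 of 12 neuron markers lower (median -0.76) and 13 of 14 mural cell and fibroblast markers lower (median -0.74), with 0 called in each. Their part in the glycolytic values was not tested.

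Of the 10 VEGF ligands and receptors edgeR called 1 for genotype in ESD pups, where 1.04% of all genes were called and 0.584% were called higher. This was Vegfa, the call already counted among the 8 members. The median of the list in ESD pups was -0.080, and 7 of the 10 had a lower estimate in AGR cKO, as had 49.7% of all genes. Kdr, the main endothelial VEGF receptor, stood at 317, 47.9 and 76.8 CPM in Cre- control and at 43.6, 57.5 and 96.9 CPM in AGR cKO control (-1.16 ± 0.63, edgeR adjusted p = 0.582). Its estimate rested on the first Cre- control library and was 0.082 without it. That library also held the highest endothelial marker sum, 2377 CPM, but Kdr is itself 1 of the 14 endothelial markers. The 2 values are therefore not separate observations. Pgf, placental growth factor, was lower in estimate over both conditions (-0.38 ± 0.11, edgeR adjusted p = 0.0875). Nrp1, a co-receptor, was at -0.26 ± 0.19 for stress in Cre- (edgeR adjusted p = 0.783). The 4 HIF coactivators and their inhibitors had 0 calls by edgeR in every comparison. Over both conditions 1 of them, Cited1, had an unadjusted p under 0.05 (0.80 ± 0.31, edgeR adjusted p = 0.183), as had 20% of all genes. Cited2, a competitor of HIF for its coactivators, was at 0.068 ± 0.16 for stress in Cre- (edgeR adjusted p = 0.951).

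Among 9 tested relatives of HIF in the bHLH-PAS family, Npas2 followed the direction of Hif3a. Npas2, a partner of the ARNT-like clock protein BMAL1, was at 40.01, 47.2 and 47.9 CPM in Cre- control and 48.1, 55.0 and 67.8 CPM in Cre- ESD. It was at 24.6, 25.1 and 27.5 CPM in AGR cKO control and 29.0, 23.3 and 34.6 CPM in AGR cKO ESD, with no overlap between genotypes. Npas2 fell by 0.89 on the log2 scale over both conditions (SE 0.11, edgeR adjusted p = 0.00427), a call that held in all 12 fits without 1 library. In ESD pups alone it fell by 0.97 (SE 0.15, edgeR adjusted p = 0.024), a call lost without the first or the third Cre- ESD, the second AGR cKO control or the first AGR cKO ESD library (adjusted p 0.0619 to 0.0937) and in a fit of the ESD libraries alone (0.146). In control pups the value was -0.81 ± 0.15 (edgeR adjusted p = 0.143).

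Arntl, the gene for BMAL1, and Ahr, the receptor for dioxin-like compounds that also pairs with ARNT, were higher in AGR cKO. Arntl ranged from 35.6 to 39.8 CPM in the Cre- libraries and from 39.6 to 47.3 CPM in the others, and it rose by 0.21 ± 0.045 over both conditions (edgeR adjusted p = 0.0293) and by 0.32 ± 0.064 in ESD pups (edgeR adjusted p = 0.0431). Its first call was lost in 6 of 12 fits without 1 library (adjusted p 0.0551 to 0.0859): the third of each of Cre- control and Cre- ESD, all 3 AGR cKO control and the first AGR cKO ESD. Its second was lost in 11 of 12 (0.0511 to 0.144), all but that without the first Cre- control library, and in the fit of the ESD libraries alone (0.171). Ahr ranged from 4.14 to 10.8 CPM in the Cre- libraries and from 7.32 to 17.9 CPM in the others, a log2 difference of 0.92 ± 0.195 over both conditions (edgeR adjusted p = 0.0293), lost in 7 of 12 such fits (0.0534 to 0.0821) and kept without the second or the third Cre- control, the second Cre- ESD or the second or the third AGR cKO ESD library. The Ahr call was also lost with the endothelial term (adjusted p = 0.0545). The Arntl call over both conditions was also lost by limma on log2 TPM (0.0571 and 0.0604), and its ESD call without the filter on low counts, with the endothelial term, with a replicate block and by limma (0.0515 to 0.0787). Of these 9 genes, 2 were called higher and 1 lower over both conditions, with a median of 0.14, where 1.55% of all genes were called higher and 1.94% lower.

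**Figure D5:**
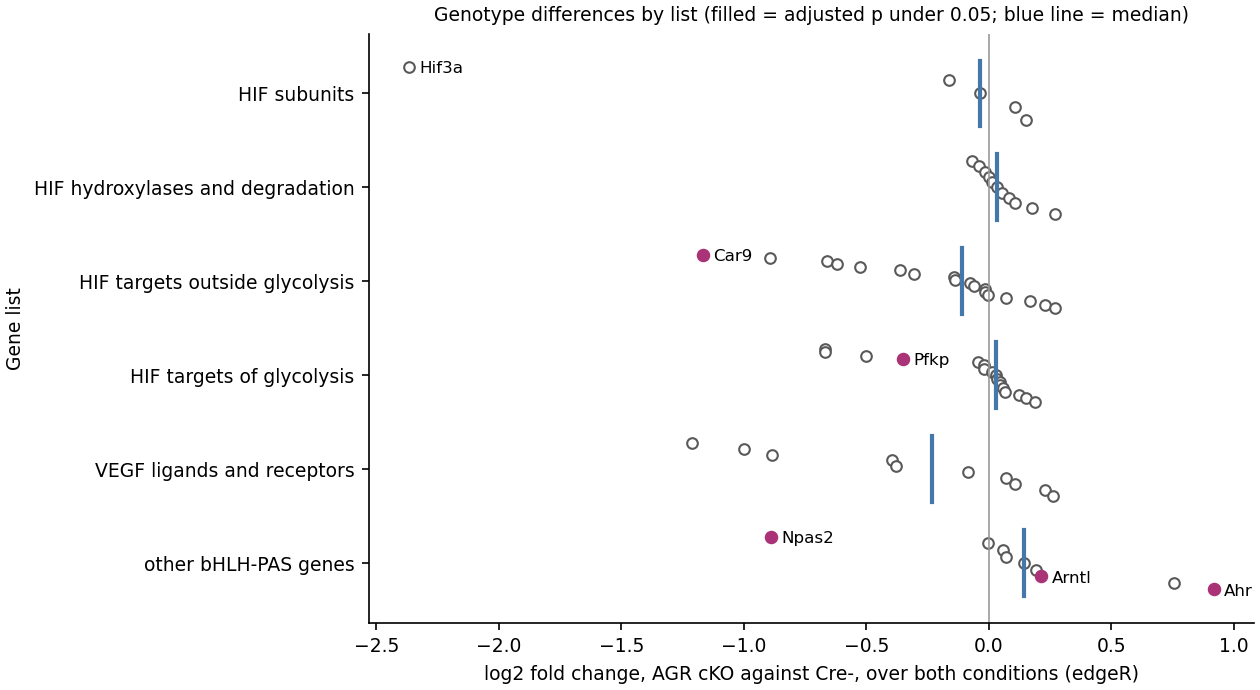
Log2 fold changes for genotype over both conditions (horizontal axis; AGR cKO against Cre-, edgeR) of the genes in 6 lists around HIF (vertical axis); filled points passed an adjusted p of 0.05, blue lines are list medians, and Hif3a is drawn open because it was not tested. Medians lie between -0.23 and 0.14, and the filled points are Car9, Pfkp, Npas2, Arntl and Ahr.

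The genes whose levels ran most like Hif3a were sought among 11440 genes that averaged 5 CPM or more, by Pearson r of log2 CPM. Over all 12 libraries these were Mycl (0.97), Farp1 (0.968), Acsl3 (0.962), Map7d2 (0.96) and Aqp11 (0.96). The 12 points share the genotype split, so any gene that set the genotypes apart scores high. Mycl, a MYC family gene, stood at 16.9, 27.5, 18.7, 26.8, 24.2 and 63.2 CPM in the Cre- libraries and at 8.15 to 12.2 CPM in the AGR cKO libraries, so the third Cre- ESD library was highest for Mycl as for Hif3a.

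Within the 6 Cre- libraries alone the 5 most like genes were Prkcd (0.99), Zfp286 (0.987), Zfp788 (0.984), Slc39a14 (0.984) and Kdm3a (0.982), sharing none with the first 5. The third Cre- ESD library, with 194 CPM of Kdm3a and 362 CPM of Hif3a, was again highest in each. Without the 2 libraries farthest from the median of Hif3a the r over the remaining 4 ranged from 0.919 to 0.956 for these genes. The 5 genes were picked on these same 6 libraries, so a high r over 4 of them follows in part from that choice. In the 6 AGR cKO libraries the r was 0.82 for Kdm3a, 0.381 for Slc39a14 and 0.008 for Prkcd, and negative for Zfp286 and Zfp788. These correlations describe 12 or 6 points and carry no test. A ranking by Spearman's rho shared 1 of 5 genes with each of the 2 lists.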

How the data were processed

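RNA was measured in 12 astrocyte libraries. The authors deposited whole read counts per gene and per transcript, whole numbers without scaling. FPKM columns, present per the file headers, served only to recompute the Hif3a ratio, and the deposited TPM values, levels per length, were used for order between genes and for transcripts. Build mm10, StringTie 1.3.4b, HISAT2 2.1.0, Trimmomatic, Bowtie2, HISAT and DESeq2 are listed, without roles, in the submitters' processing notes; whether counting used the strand is not given in the sources used here. An antisense gene across Hif1a, Gm15283, held 6 counts over all libraries, and reads of overlapping genes cannot be told apart without strand. Groups follow the sample titles. Column names read cre_M and cre_P, taken here as Cre minus and plus, which the labels do not spell out and which Nr3c1 levels fit. The gene number in some genotype labels increases by replicate, and titles were used in preference.

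Gene counts were tested with the quasi-likelihood test of edgeR 4.0.16 in R 4.3.3 (filterByExpr, 19163 genes, all 9 members among them; TMM; 1 mean per group over 12 libraries, 8 residual degrees of freedom; biological coefficient of variation 0.1945), two-sided, with Benjamini-Hochberg adjustment over all genes and calls under 0.05. CPM values use TMM-scaled totals. With 3 libraries against 3, an exact permutation test cannot go below 0.1, so no permutation test was run on single genes. The test was checked on simulated counts. Alternatives were DESeq2 1.42.0, limma 3.58.1 on log2(TPM + 1) and log2(TPM + 0.1), other scalings and filters, a replicate block, an endothelial covariate, the compared groups alone and each library left out.

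The 9 genes, the pathway and marker lists and the rule for named genes were chosen with earlier results of these data known. The rule names the 9 genes and, per pathway list and comparison, up to 4 called genes or up to 2 with the smallest p. Slc2a1 and Kdm3a over both conditions, and Adm, Ankrd37 and Ndrg1, lie outside it and were chosen after their values were seen. Oligodendrocyte, precursor, mural, ependymal and erythroid markers were summed in the same way: over all libraries they lay at 226 to 340, 144 to 354, 2380 to 6897, 37.9 to 115 and 25.4 to 224 CPM. Over both conditions, genotype calls among them were 3 of 8 ependymal markers lower (smallest adjusted p 0.0112), 1 of 7 precursor markers higher (0.00382) and 0 in the other 3 lists. Of 12 astrocyte markers 1 was called higher and 2 lower, where 1.55% of all genes were called higher and 1.94% lower. Promoter windows, names and coordinates come from RefSeq (GRCm38.p6), and 8 of 9 members had a window.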

Additional observations from a re-analysis of the deposited data

How the results depend on the processing

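Counts of the 8 genes called for genotype in ESD pups depended on the setting: 1 by edgeR, 0 without a filter on low counts, with a replicate block, with the endothelial covariate, by limma on log2(TPM + 1) or log2(TPM + 0.1), and in a fit of the compared groups alone, and 0 to 1 with 1 library left out. Over both conditions the count was 0 and DESeq2 gave 1. Over all genes, calls for genotype in ESD pups went from 200 to 791 by DESeq2, 100 without the filter and 0 with the compared groups alone, those in control pups from 3 to 266, 20 with the endothelial covariate and 31 with the compared groups alone, and those over both conditions from 668 to 1710 by DESeq2. With 1 library left out they ran from 2 (without the first Cre- ESD library) to 280 (without the first Cre- control) in ESD pups, from 0 to 63 (without the third Cre- ESD) in control pups, and from 151 (without the second AGR cKO control) to 932 (without the second Cre- control) over both conditions, so the shares of all genes called move with single libraries. The labels do not say that a replicate number pairs libraries. Deviations of same-numbered libraries correlated at -0.104 to 0.227 (18 pairs, median 0.0385) and those of different numbers at -0.223 to 0.167 (36 pairs, median -0.0025). These ranges overlap widely. Of the 12 libraries 8 correlated best with a library of their own number, but best matches can be mutual, so the 8 are not independent. This is at most a hint of pairing from the data, not the design. The replicate block took the Vegfa adjusted p in ESD pups to 0.0625 and that of Arntl to 0.0515.

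Small differences changed sign. For Hif1a, stress in Cre- was -0.01897 by limma on log2(TPM + 1) and -0.01926 on log2(TPM + 0.1), and for Vhl, genotype in ESD pups was -0.049 with the endothelial covariate. With 1 library left out, these ranges crossed 0 on the log2 scale. For genotype in control pups they were -0.20 to 0.0079 for Epas1, -1.57 to 0.082 for Kdr, -0.035 to 0.077 for Vegfa, -0.23 to 0.072 for Bnip3 and -0.057 to 0.011 for Arnt. For genotype in ESD pups they were -0.11 to 0.025 for Arnt, -0.034 to 0.066 for Egln1 and -0.069 to 0.20 for Vhl. For genotype over both conditions they were -0.066 to 0.00066 for Arnt. For stress in Cre- they were -0.38 to 0.026 for Nrp1, -0.020 to 0.19 for Epas1, -0.086 to 0.24 for Cited2 and -0.0098 to 0.11 for Hif1a. For stress in AGR cKO they were -0.072 to 0.11 for Egln3, -0.061 to 0.20 for Vhl, -0.14 to 0.024 for Epas1 and -0.10 to 0.40 for Hif3a. The 5 genes most like Hif3a by Spearman's rho shared 1 with those by Pearson's r. The wide spread of Hif3a in Cre- ESD widened the interval of its stress comparison.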
